A study of Arabidopsis thaliana with 9 samples.

Results

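The Arabidopsis stress-associated protein (SAP) family comprises genes whose products carry A20 and AN1 zinc fingers, or AN1 fingers without an A20 finger. The members were chosen by locus, with earlier results of these data known, and the rule names SAP6, SAP4 and SAP9 first. Of the 13 loci of the rule 6 have a probe set that names them alone. These are AT1G51200 (SAP2), AT2G27580 (SAP3), AT2G36320 (SAP4), AT3G52800 (SAP6), AT4G22820 (SAP9) and AT3G57480 (SAP13), and they were 6 of the 13286 genes so named on the array. The other 7 loci were not analysed here. They are AT1G12440, AT3G12630, AT4G12040, AT4G14225, AT4G25380, AT2G41835 and AT3G28210. SAP2 lies on chromosome 1, SAP3 and SAP4 on chromosome 2, SAP6 and SAP13 on chromosome 3 and SAP9 on chromosome 4 of assembly TAIR10.1. RefSeq lists 4 transcripts for SAP2, 2 each for SAP3, SAP6, SAP9 and SAP13, and 1 for SAP4, and the single signal per gene does not separate transcripts.

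Proteins of this family are small. Their A20 finger can bind ubiquitin, and for some plant members ubiquitin ligase activity has been reported. Many SAP genes of rice and Arabidopsis respond to cold, salt, drought or wounding at the transcript level, and plants with added copies of such genes have been studied for stress tolerance. SAP13 belongs to the branch with AN1 fingers and no A20 finger, while the other 5 measured members carry both kinds of finger.

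Transcript levels were measured on 9 Affymetrix arrays, 3 for each of 3 groups of untreated seedlings of the ecotype labelled col 1, grown for 21 days on MS medium without antibiotic. The first group is line 22, which expresses the rice gene OsSAP11, itself a SAP gene, and the second is line 25, which expresses the rice gene OsRLCK253, a receptor-like cytoplasmic kinase. The third is untransformed wild type. Each transgene is represented by 1 line, the promoter that drives it is not given in the sources used here, and a line and its transgene cannot be told apart. The labels call the replicates biological without saying how many plants made up a sample, so p values measure the spread between these samples. Signals are linear intensities, and no gene's signal is set against another gene's, since each has its own probes. Whole seedlings hold many cell types, and fewer cells of a type and less RNA per cell cannot be told apart.

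The median signal per array lay between 43.2 and 46.5. For 18 probe sets of control transcripts spiked into the hybridisation mix, the median difference of log2(signal + 16) was -0.26 between the OsSAP11 line and wild type (range -0.43 to -0.039) and -0.17 between the OsRLCK253 line and wild type (range -0.42 to -0.018). All 18 were lower in each line, so both ranges leave out 0. Over all probe sets the median differences were -0.0021 for the OsSAP11 line and 0.014 for the OsRLCK253 line. The ranges are set beside results below as sizes and are not a test. Of 10 green tissue marker genes 4 were measured, and their summed signal was 71752 to 78253 in the OsSAP11 line, 75153 to 77799.5 in the OsRLCK253 line and 55977 to 61182 in wild type. Of these, RCA, PRK and LHCB4.2 passed the test as higher in each line, and LHCB4.1 did not. Of 10 root markers 1 was measured, PYK10, at 6297 to 7777 in the OsSAP11 line, 6499 to 9038 in the OsRLCK253 line and 6119 to 7772 in wild type. None of the 7 flower and seed markers has a probe set of its own here. The part of these shifts in the results below was not tested.

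SAP6, SAP4 and SAP9 fell in the OsSAP11 line, and SAP4 and SAP9 fell in the OsRLCK253 line. SAP6 had a signal of 307 ± 27.5 (SD, n = 3) in the OsSAP11 line, 451 ± 128 in the OsRLCK253 line and 860.2 ± 181 in wild type. SAP4 had 588 ± 63.6 in the OsSAP11 line, 543 ± 51.1 in the OsRLCK253 line and 1066 ± 158 in wild type. SAP9, whose product has been linked to abscisic acid responses, had 195 ± 2.19 in OsSAP11 seedlings, 223 ± 14.4 in OsRLCK253 seedlings and 294 ± 4.40 in wild type. SAP2, SAP3 and SAP13 passed the test in neither line.

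**Figure D1:**
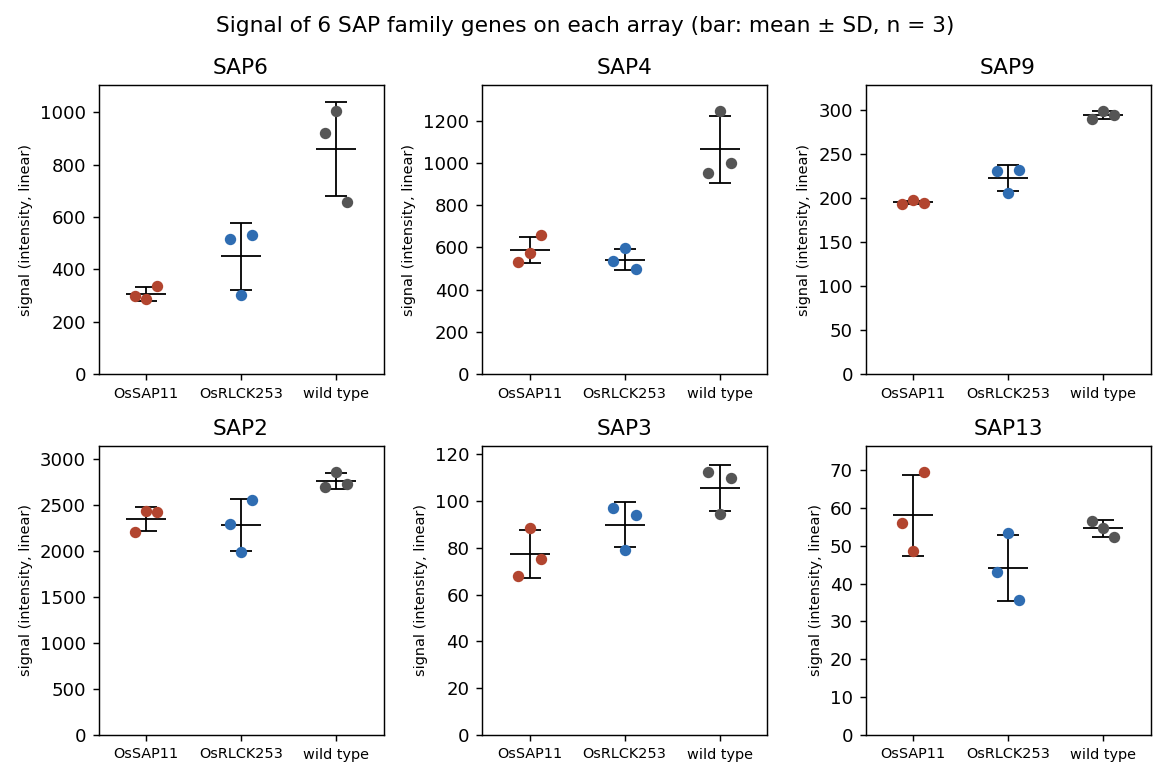
Signal of the 6 measured SAP genes on each array, as linear intensity from 0 on the vertical axis, with the OsSAP11 line on the left, the OsRLCK253 line in the middle and wild type on the right. Points are arrays and bars the mean ± SD (n = 3); for SAP6, SAP4, SAP9 and SAP2 all 3 arrays of each line lie under all 3 wild type arrays.

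A gene was called where the adjusted p of limma's moderated test, over all 22746 probe sets tested, was under 0.05. In the comparison of the OsSAP11 line with wild type, 3 of the 6 SAP genes were called lower and 0 higher. Over all probe sets 5.17% were called lower and 7.44% higher. On each array 39.8% to 40.3% of all probe sets had a signal under 16, where the 16 added makes differences smaller. No measured SAP gene had a group mean under 44, so the shares of all probe sets include many dimmer ones. All 3 arrays of the OsSAP11 line lay below the 3 wild type arrays for 5 of the 6 genes, against 13.9% of all probe sets. In the comparison of the OsRLCK253 line with wild type, 2 of the 6 were called lower and 0 higher, against 6.85% and 6.95% of all probe sets. The 3 arrays of the OsRLCK253 line lay below the wild type arrays for 4 of the 6 genes, against 12.4% of all probe sets. The median difference of log2(signal + 16) over the 6 genes was -0.47 for the OsSAP11 line and -0.33 for the OsRLCK253 line, and over all probe sets it was -0.0021 for the OsSAP11 line and 0.014 for the OsRLCK253 line. The 2 comparisons share the wild type arrays. All called members are among SAP6, SAP4 and SAP9, which the rule names first, and members were chosen with earlier results known. The counts of members beside the shares of all probe sets, here and below, are therefore descriptions and no test of the family.

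SAP6 had signals of 297, 285 and 338 in OsSAP11 seedlings, 517, 303 and 532 in OsRLCK253 seedlings, and 919, 1004 and 657 in wild type. The lines did not overlap wild type, and OsRLCK253 replicate 2 lay at the level of the OsSAP11 line while the other 2 arrays of its group lay above it. The mean of the OsSAP11 line was 35.7% of that of wild type, a difference of -1.42 ± 0.25 on the log2(signal + 16) scale (SE, adjusted p = 0.0128 by limma). Of all probe sets, 0.976% had a more negative difference. In the OsRLCK253 line the mean was 52.4% of that of wild type and the difference was -0.93 ± 0.25 (adjusted p = 0.0528 by limma), just short of the threshold, and 2.46% of all probe sets had a more negative one. The second difference was called without wild type replicate 3, the lowest wild type array (-1.11, adjusted p = 0.0462), and in 4 other alternatives. These were centring on array medians (adjusted p = 0.0285), 1 in place of 16 added to the signals (adjusted p = 0.0438), removal of dim probe sets (adjusted p = 0.00656) and a prior with a trend (adjusted p = 0.0243). Among the 6 genes SAP6 varied most from array to array in the OsRLCK253 line, with an SD of 28.5% of the mean, and in wild type, with 21.1%. SAP13 came next with 19.9% in the OsRLCK253 line. In the OsSAP11 line the SD of SAP6 was 8.97% of the mean, and SAP13 varied most with 18.3%.

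SAP4 had signals of 532, 574 and 657 in OsSAP11 seedlings, 535, 597 and 496 in OsRLCK253 seedlings, and 952, 1246 and 999.8 in wild type. The lines overlapped each other, and every array of both lay under every wild type array. The difference from wild type was -0.84 ± 0.13 in the OsSAP11 line (SE, adjusted p = 0.00790 by limma) and -0.95 ± 0.13 in the OsRLCK253 line (adjusted p = 0.00414 by limma), where the means were 55.2% (OsSAP11 line) and 50.9% (OsRLCK253 line) of that of wild type.

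SAP9 had signals of 193, 197 and 194 in OsSAP11 seedlings, 231, 206 and 231 in OsRLCK253 seedlings, and 289, 298 and 294 in wild type. The 3 groups did not overlap, and the order was OsSAP11 line, OsRLCK253 line, wild type from low to high. The difference from wild type was -0.56 ± 0.042 in the OsSAP11 line (SE, adjusted p = 0.000850 by limma), where the mean was 66.3% of that of wild type. In the OsRLCK253 line it was -0.38 ± 0.042 (adjusted p = 0.00204 by limma), at 75.8% of wild type, and this difference lies within the range of the spike-in differences of that comparison, -0.42 to -0.018. The differences of SAP6 and SAP4 in both lines, and that of SAP9 in the OsSAP11 line, lie below the spike-in range. SAP9 thus had a smaller change than SAP6 and SAP4 and the smallest adjusted p of the 6 genes in both comparisons, its SD being 1.12% of the mean in the OsSAP11 line and 1.5% in wild type.

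SAP2 had signals of 2199, 2429 and 2419.7 in OsSAP11 seedlings, 2289, 1985 and 2552 in OsRLCK253 seedlings, and 2688, 2855 and 2721 in wild type. Every array of both lines lay under the wild type arrays, and the lines overlapped each other. The differences from wild type were -0.23 ± 0.090 in the OsSAP11 line (SE, adjusted p = 0.171 by limma) and -0.28 ± 0.090 in the OsRLCK253 line (adjusted p = 0.0943 by limma), which lie within the range of the spike-in differences. Without OsRLCK253 replicate 3 the second difference was -0.37 (adjusted p = 0.0337).

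SAP3 had signals of 68.2, 88.3 and 75.1 in OsSAP11 seedlings, 96.8, 79.1 and 94.0 in OsRLCK253 seedlings, and 112, 94.5 and 109.9 in wild type. The OsSAP11 arrays lay under the wild type arrays, while the OsRLCK253 arrays overlapped both of the other groups. The difference from wild type was -0.39 ± 0.11 in the OsSAP11 line (SE, adjusted p = 0.0610 by limma) and -0.20 ± 0.11 in the OsRLCK253 line (adjusted p = 0.255 by limma), both within the range of the spike-in differences. The first passed under 3 other settings of scaling or filtering, with an adjusted p of 0.0441 after quantile normalization, 0.0305 with each array centred on its median and 0.0274 with dim probe sets removed, and it was 0.0474 without OsSAP11 replicate 2.

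SAP13, which in Arabidopsis has been studied in tolerance to toxic metals, had signals of 56.0, 48.6 and 69.6 in OsSAP11 seedlings, 43.1, 53.3 and 35.8 in OsRLCK253 seedlings, and 56.7, 54.8 and 52.4 in wild type. The arrays of the OsSAP11 line lay on both sides of those of wild type, and those of the OsRLCK253 line overlapped both of the other groups. The difference from wild type was 0.059 in the OsSAP11 line (95% confidence interval -0.25 to 0.37, adjusted p = 0.956 by limma) and -0.24 in the OsRLCK253 line (interval -0.56 to 0.070, adjusted p = 0.263), the second within the range of the spike-in differences. It was the only member with a positive difference from wild type in the OsSAP11 line, and that sign turned to -0.050 without OsSAP11 replicate 3.

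**Figure D2:**
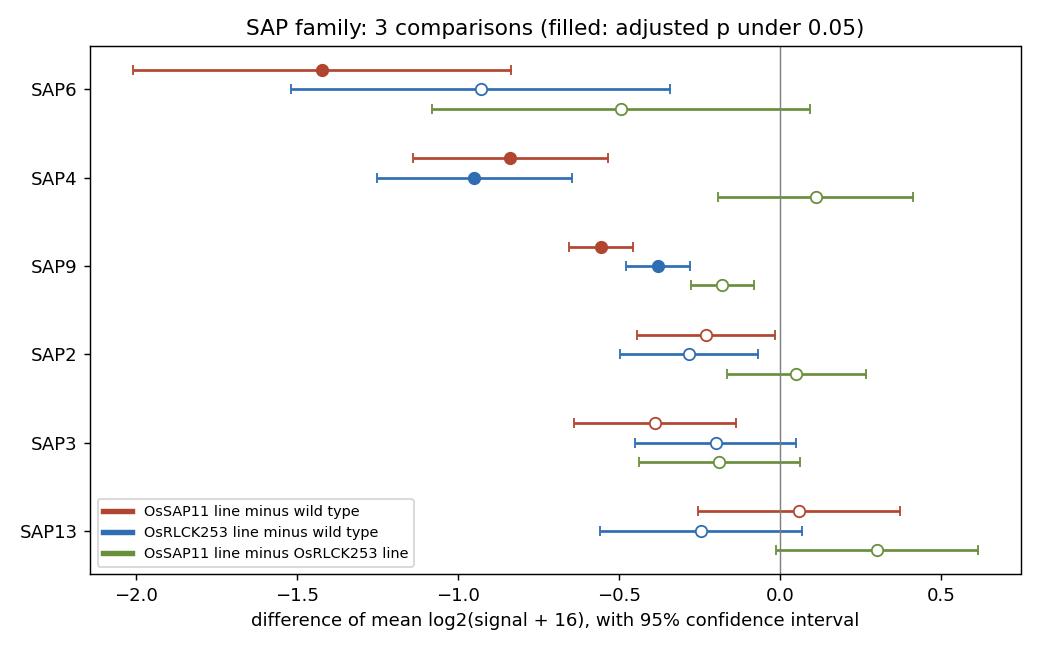
Difference of mean log2(signal + 16) with its 95% confidence interval for each SAP gene, in red for the OsSAP11 line minus wild type, in blue for the OsRLCK253 line minus wild type and in green for the OsSAP11 line minus the OsRLCK253 line. Filled points passed an adjusted p of 0.05: SAP6 at -1.42, SAP4 at -0.84 and SAP9 at -0.56 in red, and SAP4 at -0.95 and SAP9 at -0.38 in blue; no green point did.

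Between the 2 transgenic lines, 0 of the 6 SAP genes were called by limma, against 1.87% of all probe sets called lower and 3.34% called higher in the OsSAP11 line. At an unadjusted p under 0.05, 1 of the 6 passed, SAP9, with a difference of -0.18 ± 0.042 for the OsSAP11 line minus the OsRLCK253 line (SE, adjusted p = 0.0615), within the range of the spike-in differences between the lines, -0.26 to 0.18. Its 3 OsSAP11 arrays lay below the 3 OsRLCK253 arrays, as they did for 37.5% of all probe sets. The median difference between the lines over all probe sets was only -0.012. SAP9 was called in this comparison after quantile normalization (-0.22, adjusted p = 0.0488), with each array centred on its median (-0.21, adjusted p = 0.0329) and without OsRLCK253 replicate 2 (-0.23, adjusted p = 0.00705). For SAP6 the difference was -0.49 with an interval of -1.08 to 0.095 (adjusted p = 0.245), for SAP4 it was 0.11 with an interval of -0.19 to 0.41 (adjusted p = 0.557), and for SAP13 it was 0.30 with an interval of -0.011 to 0.62 (adjusted p = 0.199). The interval of SAP4 leaves out differences as large as those from wild type, -0.84 and -0.95, and that of SAP6 leaves out its difference of -1.42 in the OsSAP11 line but not that of -0.93 in the OsRLCK253 line.

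A moderated F-test of any difference among the 3 groups called SAP9 (adjusted p = 0.00102), SAP4 (adjusted p = 0.00620) and SAP6 (adjusted p = 0.0206) by limma, 3 of the 6 genes, against 17.4% of all probe sets. SAP3 (adjusted p = 0.0992), SAP2 (adjusted p = 0.130) and SAP13 (adjusted p = 0.247) did not pass. SAP6 lost this call in 4 of the 9 fits that left out 1 array, with an adjusted p of 0.0604 without OsSAP11 replicate 1, 0.0597 without OsSAP11 replicate 2, 0.0755 when wild type replicate 1 was left out and 0.0627 when wild type replicate 2 was. SAP2 gained it without OsRLCK253 replicate 3 (adjusted p = 0.0492). For 1 value on its own, the exact two-sided permutation test of 3 arrays against 3 cannot give a p under 0.1. It gave that smallest value for SAP2, SAP4, SAP6 and SAP9 in each line against wild type, for SAP3 in the OsSAP11 line, and for SAP9 between the lines.

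The members varied together to different degrees over the 9 arrays, which share their groups, so that these correlations are descriptions. SAP6 and SAP9 had the highest Pearson correlation of the 15 pairs, 0.956, followed by SAP3 with SAP9 at 0.846 and SAP4 with SAP9 at 0.840. After each group's mean was subtracted, the correlation of SAP6 with SAP9 was 0.777 and that of SAP2 with SAP9 was 0.879, while that of SAP4 with SAP6 was -0.033 and that of SAP4 with SAP9 was -0.24. SAP2, SAP3, SAP6 and SAP9 each had their lowest OsRLCK253 signal on replicate 2, where SAP4 and SAP13 had their highest. The correlations of SAP13 with SAP2, SAP6 and SAP9 over the 9 arrays were -0.0096, -0.094 and -0.078.

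The probe sets of 1 named gene whose log2 signals followed SAP6, SAP4 and SAP9 most closely over the 9 arrays were chosen for that likeness, which includes the differences between the groups, so that their levels are descriptions with no test. For SAP6 they were AT5G46780 (r = 0.990), AT1G52200 (r = 0.989) and AT1G07135 (r = 0.983). AT1G52200 had signals of 48.7, 44.6 and 59.3 in OsSAP11 seedlings, 106, 57.1 and 112 in OsRLCK253 seedlings, and 182, 188 and 149.7 in wild type, with the low OsRLCK253 replicate 2 and the low wild type replicate 3 that SAP6 also had. For SAP4 they were AT1G49200 (r = 0.975), AT2G27500 (r = 0.970) and AT3G10020 (r = 0.967). AT3G10020 had signals of 411, 535 and 669.6 in OsSAP11 seedlings, 372, 312 and 375 in OsRLCK253 seedlings, and 2035, 2653 and 1910.1 in wild type. For SAP9 they were AT1G74840 (r = 0.991), AT5G42050 (r = 0.991) and AT3G57450 (r = 0.988). AT5G42050 had signals of 659.9, 630.0 and 689 in OsSAP11 seedlings, 996, 725 and 933 in OsRLCK253 seedlings, and 1499, 1550.2 and 1388 in wild type, so that its groups were ordered as those of SAP9.

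**Figure D3:**
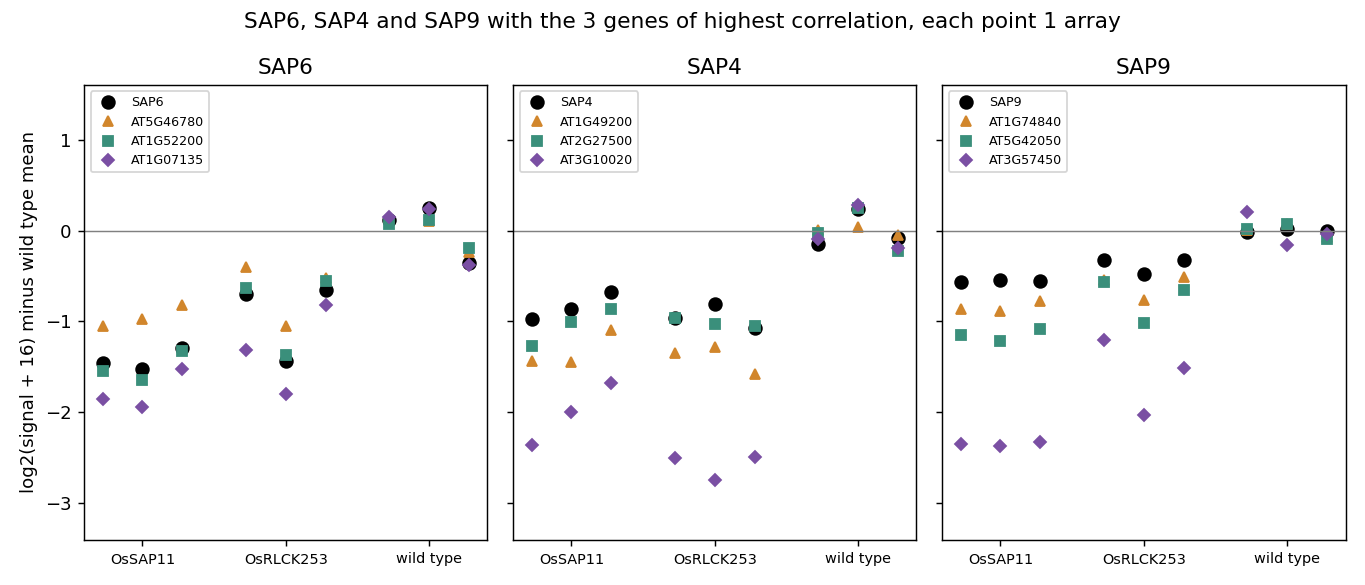
log2(signal + 16) minus the wild type mean on each of the 9 arrays, replicates 1 to 3 from left to right in each group, for SAP6, SAP4 and SAP9 (black) and the 3 genes with the highest Pearson correlation to each (colours). The SAP6 panel shows OsRLCK253 replicate 2 lower than the other 2 arrays of its group for all 4 genes, and the SAP9 panel shows AT3G57450 furthest below wild type, with differences from wild type of -2.34 for the OsSAP11 line and -1.58 for the OsRLCK253 line.

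Genes that lie beside the members on the chromosome were measured at 6 of 12 positions. Only AT3G57470, the neighbour of SAP13, passed the test, with a difference of 0.70 from wild type in the OsSAP11 line (adjusted p = 0.0384 by limma) and 0.11 in the OsRLCK253 line (adjusted p = 0.657). Of all probe sets, 5.17% were called lower and 7.44% higher in the OsSAP11 line, and 6.85% and 6.95% in the OsRLCK253 line. AT4G22830, the measured neighbour of SAP9, had differences of 0.20 for the OsSAP11 line and 0.056 for the OsRLCK253 line that did not pass. No protein-coding neighbour of SAP4 or SAP6 has a probe set of its own here.

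Since A20 fingers bind ubiquitin, genes of ubiquitin handling were set beside the family. Ubiquitin is joined to target proteins by conjugating enzymes and ligases, and the proteasome degrades proteins so marked. Of 66 listed genes 12 were measured. In the OsSAP11 line 2 of the 12 fell and 0 rose, namely the ligase genes PUB23 and XERICO, against 5.17% of all probe sets called lower and 7.44% called higher. In the OsRLCK253 line 3 fell and 0 rose, namely XERICO, PUB19 and the conjugating enzyme gene UBC28, against 6.85% of all probe sets called lower and 6.95% called higher. Of 7 ubiquitin shuttle receptors and 5 polyubiquitin genes none has a probe set of its own here.

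XERICO, which encodes a RING-H2 protein that promotes abscisic acid accumulation, had signals of 506, 576 and 613 in OsSAP11 seedlings, 343, 316 and 329.8 in OsRLCK253 seedlings, and 779.9, 666 and 708 in wild type. The 3 groups did not overlap, and the OsRLCK253 line was lowest. Its difference from wild type was -1.08 ± 0.083 in the OsRLCK253 line (SE, adjusted p = 0.000514 by limma) and -0.34 ± 0.083 in the OsSAP11 line (adjusted p = 0.0428 by limma). The second difference lies within the range of the spike-in differences, and it was called in 8 of 17 alternatives. Among those that lost the call were the fit with only the 2 groups compared (adjusted p = 0.102) and 7 of the 9 fits that left out 1 array, each one except those without OsSAP11 replicate 3 and without wild type replicate 2, with an adjusted p of up to 0.120. The OsSAP11 line lay above the OsRLCK253 line by 0.75 ± 0.083 (adjusted p = 0.00821 by limma).

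PUB23, a U-box ligase gene that acts in immune and drought signalling, showed the opposite order of the lines. It had signals of 17.9, 14.3 and 17.8 in OsSAP11 seedlings, 37.2, 28.9 and 40.6 in OsRLCK253 seedlings, and 36.9, 47.2 and 45.8 in wild type. The OsSAP11 arrays lay under all others, close to the 16 added before the logarithm, and the OsRLCK253 arrays overlapped those of wild type. The difference from wild type was -0.86 ± 0.11 in the OsSAP11 line (SE, adjusted p = 0.00422 by limma) and -0.20 ± 0.11 in the OsRLCK253 line (adjusted p = 0.252 by limma), and the lines differed by -0.65 ± 0.11 (adjusted p = 0.0229 by limma). That call between the lines was kept in 10 of 17 alternatives. Among those that lost it were the fits with only those 2 groups (adjusted p = 0.0575), without any 1 of the 3 OsSAP11 arrays, without OsRLCK253 replicate 1 and without OsRLCK253 replicate 3, with an adjusted p of 0.0502 to 0.0742.

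PUB19, a related U-box ligase gene, had signals of 33.7, 34.1 and 30.4 in OsSAP11 seedlings, 27.3, 14.1 and 25.7 in OsRLCK253 seedlings, and 73.6, 58.9 and 49.2 in wild type. Both lines lay under wild type, with a difference of -0.64 ± 0.17 in the OsSAP11 line (SE, adjusted p = 0.0526 by limma) and -1.0 ± 0.17 in the OsRLCK253 line (adjusted p = 0.00987 by limma). The first difference was called in 7 of 17 alternatives, among them the fit without OsRLCK253 replicate 2 (adjusted p = 0.0226). UBC28, whose sequence is close to that of other conjugating enzyme genes so that its probes may not separate them, had 5527 ± 248 in the OsSAP11 line, 4278 ± 481 in the OsRLCK253 line and 5899 ± 213 in wild type (SD, n = 3). It differed from wild type by -0.47 ± 0.083 in the OsRLCK253 line (SE, adjusted p = 0.0124 by limma) and by -0.094 in the OsSAP11 line (adjusted p = 0.623 by limma). The OsSAP11 line minus the OsRLCK253 line was 0.37 ± 0.083 for UBC28 (adjusted p = 0.0531 by limma). That difference was not called, and it was called in 6 of 17 alternatives. PUB22 and PUB24, the other 2 ligase genes measured, had negative differences that did not pass, PUB22 of -0.26 and PUB24 of -0.41 in the OsSAP11 line, against -0.17 and -0.24 for the OsRLCK253 line. PUB22 lay under a signal of 16 on every array, so that the 16 added makes its differences smaller. Those 4 differences lie within the range of the spike-in differences, but for such dim signals this depends on the 16 added. With 1 added in its place, PUB22 had -0.72 and PUB24 -0.70 in the OsSAP11 line, against -0.44 and -0.40 in the OsRLCK253 line. These did not pass either, though PUB22 in the OsSAP11 line was at the threshold (adjusted p = 0.05005 by limma). Over all alternatives, PUB22 in the OsSAP11 line was called in 3 of 16 (lowest adjusted p = 0.0287 by limma). PUB24 in that line was called in 2 of 17 (lowest adjusted p = 0.0444 by limma). In the OsRLCK253 line neither was called in any alternative.

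The other conjugating enzyme gene measured, UBC30, had differences from wild type of 0.23 (OsSAP11 line) and 0.17 (OsRLCK253 line) that did not pass. None of the 5 measured proteasome subunit genes of 33 listed passed in either line. Their median difference from wild type was 0.040 for the OsSAP11 line and 0.083 for the OsRLCK253 line, and AT1G45000 had the largest in the OsSAP11 line with 0.16, while AT2G32730 had the largest in the OsRLCK253 line with 0.17. For the OsSAP11 line AT5G23540 had 0.019, AT4G24820 had -0.016 and AT1G04810 had 0.066, and for the OsRLCK253 line they had 0.13, 0.083 and 0.055.

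**Figure D4:**
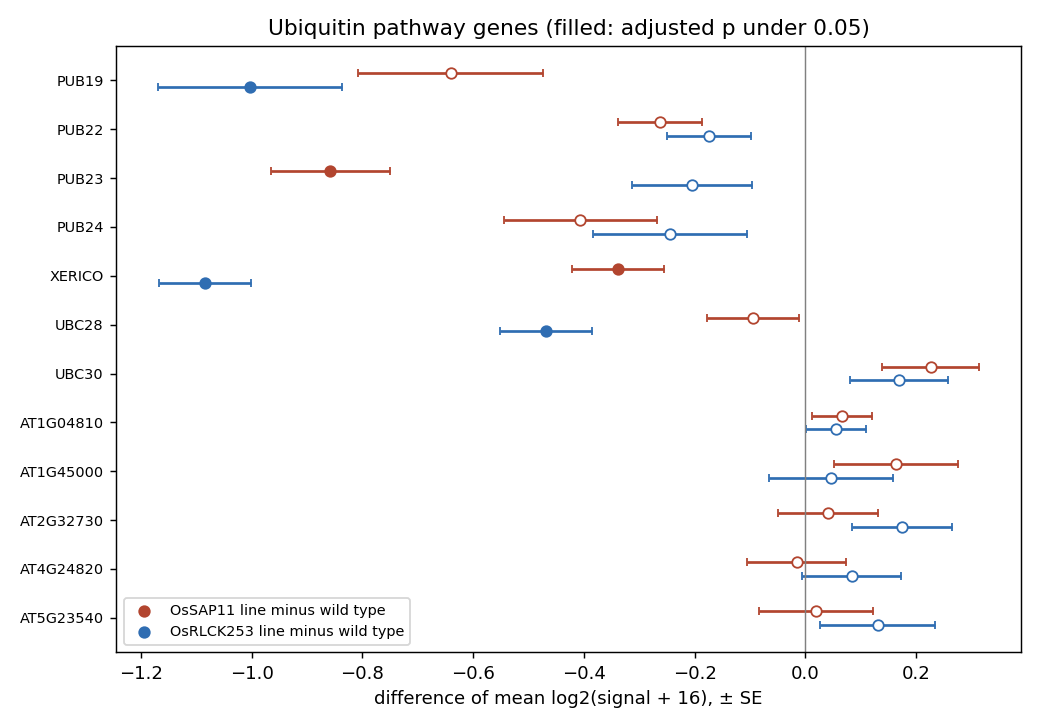
Difference of mean log2(signal + 16) from wild type, ± SE, for the 12 measured ubiquitin pathway genes, in red for the OsSAP11 line and in blue for the OsRLCK253 line, with ligases at the top, conjugating enzymes below and proteasome subunits (locus codes) at the bottom. Filled points passed an adjusted p of 0.05: XERICO at -0.34 and PUB23 at -0.86 in red, and XERICO at -1.08, PUB19 at -1.0 and UBC28 at -0.47 in blue.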

How the data were processed

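The deposited values are intensities, 1 linear signal per probe set for each of 9 Affymetrix arrays. GCOS is named in the submitters' processing notes. How signals were summarised, background-corrected or scaled is not given in the sources used here. Leaving out 64 controls, 22746 probe sets were tested. Of these 13513 name 1 gene, 503 several and 8730 none. Array medians differed by 0.0777 on the log2(signal + 16) scale, under the limit of 0.1 (by 0.106 with nothing added), so no scaling was applied. All probe sets and arrays entered 1 fit of group means with limma 3.58.1 in R 4.3.3 and eBayes moderation (6 residual and 0.773 prior degrees of freedom). Two-sided p values carry a Benjamini-Hochberg adjustment over the 22746. The procedure was tested on simulated data with 200 probe sets changed, and the outcome of that test is not given here. Members and lists were chosen with earlier results of these data known. Named are all measured SAP genes, every called and up to 4 other genes of each ubiquitin list, and the 3 probe sets of 1 gene, above the median signal of 46.9, most correlated with SAP6, SAP4 and SAP9. Neighbours of the members, and the arrays singled out, were named after their values were seen. RefSeq gave only names, chromosomes, transcript counts and gene order, since no build is named for the array. No sequences were used. Alternatives were other scalings, pseudocounts, a filter, priors and array subsets.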

Additional observations from a re-analysis of the deposited data

Results flagged for a closer look

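XERICO and PUB23 were singled out because their differences from wild type were not the same in the 2 lines by the test of the difference itself. For XERICO the OsSAP11 line minus the OsRLCK253 line was 0.75 on the log2(signal + 16) scale (adjusted p = 0.00821 by limma), and it was called in all 17 alternative fits, with an adjusted p of 0.00116 to 0.0393. For PUB23 it was -0.65 (adjusted p = 0.0229 by limma), and it was called in 10 of 17, with an adjusted p of 0.00461 to 0.0742. All 3 OsSAP11 arrays lay below the 3 OsRLCK253 arrays for PUB23, as they did for 37.5% of all probe sets. Of all probe sets 1.87% were called lower in this comparison, and their median difference was only -0.012.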

How the results depend on the processing

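Of 306 refits of the 18 SAP differences, 291 kept their direction and their side of the threshold, 13 gained a call, 0 lost one and 2 turned their sign, neither of them called. These were SAP13 in the OsSAP11 line, at -0.050 without OsSAP11 replicate 3 and -0.050 to 0.15 over the arrays left out, and SAP2 between the lines, at -0.042 without OsRLCK253 replicate 2 and -0.042 to 0.14 over the arrays left out. SAP4 and SAP9 in each line and SAP6 in the OsSAP11 line were called in all 17 alternatives, and SAP6 in the OsRLCK253 line in 5 of 17 (adjusted p = 0.00656 to 0.154 by limma). In the OsSAP11 line the adjusted p of SAP6 reached 0.0495 by limma, just under the threshold. The highest was 0.0320 for SAP4, in the OsSAP11 line, and 0.0174 for SAP9, in the OsRLCK253 line. The count of SAP genes called was 3 or 4 in the OsSAP11 line, 2 or 3 in the OsRLCK253 line and 2 to 4 in the F-test. Between the lines it was 1 after quantile normalization and 1 with median centring, and 0 to 1 with 1 array left out. Alternatives for the ubiquitin genes were added after seeing the data. The count in the OsSAP11 line was 4 with median centring, with the filter on dim probe sets and with the trend and robust prior, 1 with the replicate block, and 1 to 3 with 1 array left out. Between the lines it was 1 with the replicate block, 1 with the 2 groups alone, and 1 to 3 with 1 array left out. In the OsRLCK253 line it was 3 throughout. The cause of these changes was not tested.

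Same-numbered arrays of different groups had correlations of their deviations from -0.147 to 0.195, and 3 of 9 pairs were over 0.1. For arrays with other numbers they were -0.281 to 0.189, and 5 of 18 pairs were over 0.1. No pairing by number was seen, but correlations this weak do not settle whether the arrays were paired. With the replicate block the calls among the SAP genes remained 3, 2 and 0 in the 3 comparisons, and the F-test called 2, SAP6 dropping out (adjusted p = 0.0667). The block also ended the calls of XERICO in the OsSAP11 line (adjusted p = 0.102) and of PUB23 between the lines (adjusted p = 0.0575). The count over all probe sets was 2869 in the OsSAP11 line and fell to 1863, 1887 and 1827 without OsSAP11 replicate 1, OsSAP11 replicate 2 and wild type replicate 1. In the OsRLCK253 line it was 3138, and 2040 without wild type replicate 1, and for the F-test 3963, and 2589 without that array. Between the lines it was 1185, and 639 with the replicate block, 609 with the 2 groups alone, 1965 with the filter, 1809 with the trend and robust prior, and 564, 485 and 449 without OsSAP11 replicates 1, 2 and 3. Signals near 16, as for PUB23, limit the size of a difference.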
